A study of Gallus gallus with 2 samples.

Results

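The genes described here encode the machinery that copies DNA. Their RNA was measured in 6C2 cells by sequencing total RNA. These genes were chosen by a rule on their symbols, with earlier results of these data known. The rule covers subunits of the origin recognition complex (ORC), the MCM helicase, GINS and the replicative polymerases and primase. It also covers replication factor C (RFC), replication protein A (RPA) and the factors that license and fire origins. The clamp PCNA, the flap nuclease FEN1, DNA ligases and the fork protection gene TIMELESS are covered too. The rule took 41 gene models of 40 symbols out of 17934 models in the deposited table, and the longest model stood for a symbol that repeated. The study has no second condition, and its 2 samples of 1 group are named replicate 1 and replicate 2. 6C2 is a chicken erythroleukemia line, cycling in culture and held at the erythroid colony-forming unit stage, so all values come from 1 transformed line. No label states that the samples were grown apart, and the spread between them may be technical.

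Before a cell divides, ORC marks the places where copying can start, and CDC6 and CDT1 load the MCM ring there, a step called licensing that geminin (GMNN) blocks once copying has begun. The kinase CDC7 with its activator DBF4, together with CDC45 and GINS, turns the loaded ring into an active helicase. DNA polymerase alpha and primase then lay down primers, polymerases epsilon and delta extend them on the sliding clamp PCNA, which RFC loads, and RPA coats the opened strand. Red cell precursors divide several times before they mature, and these genes belong to those divisions.

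Levels are given as RPKM, the reads of a gene per kilobase of its model and per 1e+06 reads, which scales them for model length. Comparisons between genes still depend on the annotated models, and levels still fell with model length, as given below. In the table, replicate 1 had 40064443 reads and replicate 2 had 30668939, and the replication genes took 0.267% of the reads in each. Genes chosen as markers of red cell precursors were present, with 8 of 8 at 38.3 to 1252 RPKM. They were HBAA, HBAD, TFRC, GFI1B, LMO2, FECH, UROD and ALAS1. Whether each of them is particular to red cells was not tested. At least 1 RPKM in both samples was reached by 60.4% of the 13086 named genes of the table. EPOR, also planned as a marker, was not analysed here. Markers of fibroblasts, macrophages, B cells and T cells were low, with a range of 0.03 to 2.91. Of these, 1 of 11 was at 1 RPKM or more in both samples (CD3E). The marker sums were 1691 and 1907 RPKM for red cell precursors and 4.54 and 5.87 RPKM for the other types. HBAA alone had 1083 and 1252 RPKM in replicates 1 and 2.

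Nearly every replication gene measured here was transcribed. Of the 40 genes, 39 reached 1 RPKM in both samples, against 60.4% of the 13086 named genes of the table and 61.1% of the named genes that are neither small RNAs nor mitochondrial. The median level of the 40 was 21.2 RPKM, with 20.2 in replicate 1 and 22.6 in replicate 2. The median of all named genes was 4.34 RPKM, or 4.49 without small RNAs and mitochondrial genes and 13.9 over the named genes that reached 1 RPKM in both samples. These are descriptions, since 1 group of 2 samples allows no test of a condition. Of the 40, 22 lay above the upper quartile of named genes, at 18.2 RPKM, and 6 lay under their median. Between 10 and 50 RPKM lay 25 of the genes, with 5 above and 10 below. Of the 13086 named genes, 3379 lay between 10 and 50 RPKM and 1407 at 50 RPKM or more. In RNA pooled over a culture, fewer cells with a transcript and less of it per cell cannot be told apart, which applies to every low value given here.

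**Figure D1:**
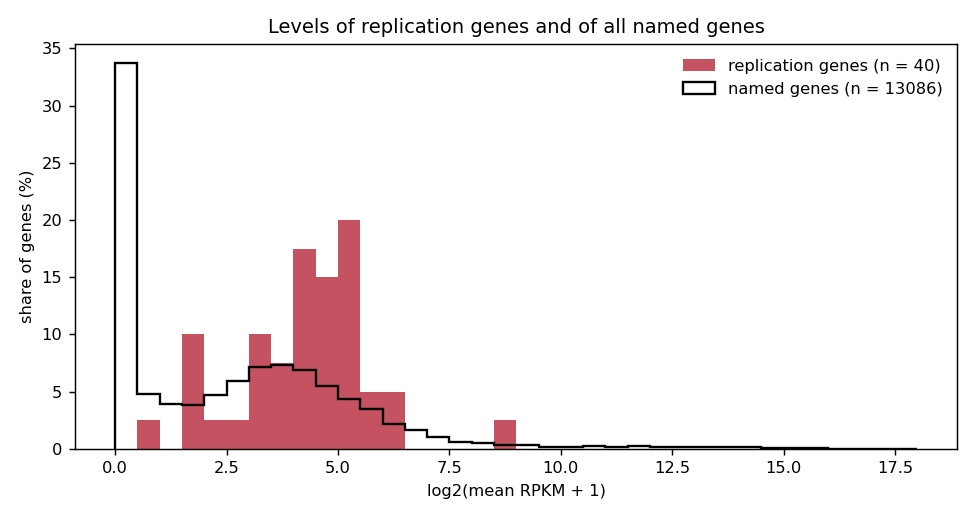
The share of genes (%) in bins of log2(mean RPKM + 1), for the 40 replication genes (filled) and for the 13086 named genes of the table (line), which include the 40. The named genes pile up at the left, near 0, while 39 of the 40 replication genes reach 1 RPKM.

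**Figure D2:**
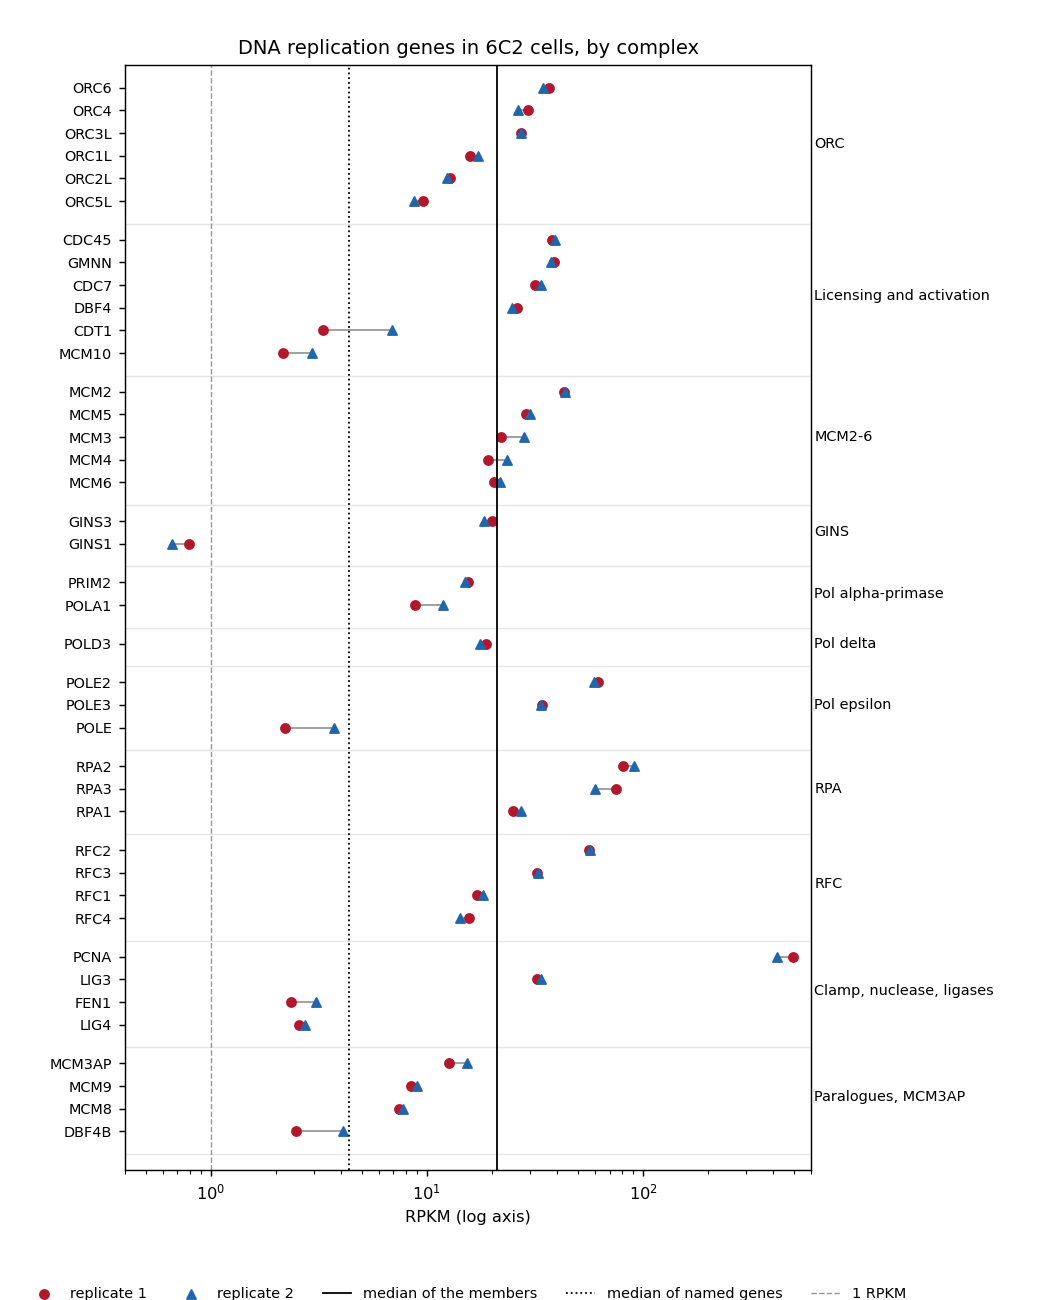
RPKM of each replication gene in replicate 1 (circles) and replicate 2 (triangles) on a log axis, grouped by complex, with the median of the 40 genes at 21.2, that of all named genes at 4.34 and the limit of 1 RPKM. PCNA stands alone at the right, GINS1 lies under 1 in both samples, and the gap between the samples is widest at CDT1.

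PCNA, the ring that tethers polymerases to DNA, was the highest gene of the machinery by a wide margin. It stood at 493 RPKM in replicate 1 and 418 in replicate 2, from 28694 and 18638 reads on a model of 1466 bp (ENSGALG00000000169, chromosome 22 from 340924 to 344179, positions as deposited, with no stated build). It lay above 97.7% of the named genes and held 34.5% and 30.5% of the summed RPKM of the 40 genes. The next gene, RPA2, was lower in both samples, and PCNA was 5.28 times RPA2, with 6.07 in replicate 1 and 4.58 in replicate 2. The clamp itself is a trimer of PCNA.

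Genes of the origin recognition complex were all transcribed, and their levels fell into an order that both samples kept for most steps. ORC6 was the highest at 36.6 RPKM in replicate 1 and 34.5 in replicate 2. ORC4 followed at 29.4 and 26.4 and ORC3, listed as ORC3L, at 27.3 and 27.2, and these 2 genes overlapped between samples. ORC1, listed as ORC1L, an ATPase of the complex, stood at 15.9 and 17.2, ORC2L at 12.8 and 12.3, and ORC5L at 9.59 and 8.68. The values of each of these 3 genes lay clear of those of the others. ORC6 was 3.90 times ORC5L, with 3.82 in replicate 1 and 3.98 in replicate 2, while no ORC gene differed between the samples by more than 1.11-fold.

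The helicase subunits lay close together. MCM2 led with 43.1 RPKM in replicate 1 and 43.6 in replicate 2, and MCM5 followed with 28.8 and 30.1. MCM3 had 21.98 and 28.1, MCM4 had 19.1 and 23.4, and MCM6 had 20.4 and 21.9. MCM2 stood apart from all other subunits in both samples. MCM5 lay above MCM3, MCM4 and MCM6 in both samples, but only narrowly above MCM3 in replicate 2. There the exact counting intervals of MCM5 and MCM3, of 28.9 to 31.3 and 27.1 to 29.1 RPKM, overlapped. MCM3 lay above MCM4 and MCM6 in both samples, while MCM4 was below MCM6 in replicate 1 and above it in replicate 2. In the hexamer each subunit is present once, and the 5 transcripts spanned 2.05-fold from MCM2 to MCM6 by their means. The span was 2.26-fold in replicate 1, where MCM4 was the lowest, and 1.99-fold in replicate 2. Between the samples the largest gap of a subunit was 1.28-fold, at MCM3. MCM7 was not analysed here.

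The licensing factor CDT1 was low among the 40 genes, though above 52.4% of the named genes by its mean, and its inhibitor was not low. CDT1 had 3.32 RPKM in replicate 1 and 6.91 in replicate 2, from 177 and 282 reads on chromosome 11, whereas GMNN had 38.6 and 37.5. GMNN was 7.44 times CDT1 by the means, with 11.6 in replicate 1 and 5.43 in replicate 2, so the size of this ratio rests on CDT1. CDT1 differed 2.08-fold between the samples (95% exact counting interval 1.72 to 2.53), the widest gap among the 40 genes. CDC6 was not analysed here.

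Genes that fire the licensed origin differed widely in level. The kinase gene CDC7 had 31.8 RPKM in replicate 1 and 33.7 in replicate 2, and its activator DBF4 had 26.1 and 24.8, so that CDC7 was 1.28 times DBF4. DBF4B, the second activator of the kinase, was lower at 2.48 and 4.10, from 95 and 120 reads. CDC45, which binds the ring to complete the helicase, had 37.9 and 39.1, close to GMNN and ORC6. MCM10, which acts on the helicase as it starts to move, had 2.16 and 2.95, and CDC45 was 15.1 times MCM10.

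The GINS complex, which rides with the helicase, showed the widest gap between the means of subunits of the same complex. GINS3 had 19.98 RPKM in replicate 1 and 18.3 in replicate 2, while GINS1 had 0.79 and 0.66 and was the only gene under 1 RPKM. GINS3 was 26.4 times GINS1, with 25.3 in replicate 1 and 27.7 in replicate 2. The GINS1 values rest on 33 and 21 reads, and their 95% exact Poisson intervals, of 0.545 to 1.11 and 0.407 to 1.01 RPKM, reach past 1. The table lists GINS1 as 2 models in a row on the plus strand of chromosome 3, and the model used spans 17346728 to 17349685. The shorter one, from 17352141 to 17355332, had 1 read in each sample. GINS2 and GINS4 were not analysed here.

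DNA polymerase epsilon, the enzyme of the leading strand, showed the next widest gap by the means, and in replicate 1 the wider one. POLE2, a structural subunit, had 62.2 RPKM in replicate 1 and 59.2 in replicate 2, and POLE3, a small histone-fold subunit, had 34.1 and 33.8. POLE, the catalytic subunit, had 2.21 and 3.72, from 620 and 801 reads on the longest model of the 40, of 7074 bp (ENSGALG00000007665, chromosome 15 from 10279548 to 10299182). POLE2 was 20.5 times POLE, with 28.2 in replicate 1 and 15.9 in replicate 2, and neither sample brought POLE near the other subunits.

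In polymerase alpha and primase, the subunits measured lay closer together. POLA1, the catalytic subunit of polymerase alpha, had 8.77 RPKM in replicate 1 and 11.9 in replicate 2, and PRIM2, the large subunit of primase, had 15.5 and 14.98. PRIM2 was above POLA1 in both samples, by 1.76-fold in replicate 1 and 1.26-fold in replicate 2. POLD3, an accessory subunit of polymerase delta, had 18.7 and 17.6. POLA2, PRIM1, POLD1, POLD2, POLD4 and POLE4 were not analysed here, so the catalytic subunit of delta has no value.

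RPA2 and RPA3, which coat the opened strand with RPA1, and the clamp loader gene RFC2 were among the 5 highest of the 40 genes. RPA2 had 81.2 RPKM in replicate 1 and 91.3 in replicate 2, and RPA3, on a model of 344 bp, had 74.6 and 59.9. RPA1, the largest subunit and the main binder of single-stranded DNA, had 25.1 and 27.3. RPA2 was 3.29 times RPA1, with 3.23 and 3.34 in the samples. The 3 proteins form a complex with a single copy of each, but these values are of RNA and protein was not measured. In the clamp loader, RFC2 had 56.4 and 56.6, RFC3 had 32.2 and 32.7, the large subunit RFC1 had 17.0 and 18.2, and RFC4 had 15.6 and 14.2. RFC2 was 3.79 times RFC4, and RFC5 was not analysed here.

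FEN1, which encodes the nuclease that trims the flaps of Okazaki fragments, was among the low genes of the 40. It had 2.34 RPKM in replicate 1 and 3.07 in replicate 2, from 227 and 228 reads. PCNA was 168 times FEN1 by the means, with 211 in replicate 1 and 136 in replicate 2. The FEN1 model is listed on the minus strand of chromosome 5 from 146858 to 164220, a span of 17363 bp for a model length of 2442 bp, and it overlaps models listed as COR8 and OR8D4, which had 4 reads or fewer in each sample. LIG1, the ligase that seals the fragments, was not analysed here, nor was the fork protection gene TIMELESS. LIG3, a ligase of repair and of mitochondrial DNA, had 32.2 and 33.6, and LIG4, the ligase of end joining, had 2.57 and 2.74, so that LIG3 was 12.4 times LIG4.

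The symbol rule also took genes outside the main fork. MCM8 and MCM9, helicase relatives that act in recombination, had 7.43 and 7.77 RPKM and 8.45 and 8.99 RPKM in replicates 1 and 2. Both were below every MCM2-7 subunit measured, and MCM6, the lowest of those by its mean, was 2.42 times MCM9. MCM3AP, a nuclear RNA export factor that is not a subunit of the helicase ring, had 12.7 and 15.3.

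Of the 39 genes with a mean of at least 1 RPKM, 29 lay within 1.2-fold between the samples, against 66.8% of the 8048 named genes of that level. In 3 genes the level was at least 1.5-fold higher in replicate 2, namely in CDT1, POLE at 1.68-fold and DBF4B at 1.65-fold, and 6.87% of the named genes were. None of the 39 was 1.5-fold higher in replicate 1, where 1.49% of the named genes were. By their means all 3 lay under 6 RPKM, and a shift of low genes towards replicate 2 ran through the table. Between 1 and 5 RPKM, 2 of 5 replication genes passed 1.5-fold in that direction, against 21.9% of the named genes of that level, whose median log2 ratio of replicate 2 over replicate 1 was 0.26. CDT1 lay between 5 and 10 RPKM by its mean. At that level 25% of the 4 replication genes passed, against 6.90% of the named genes, with a median of 0.165. At 50 RPKM and more, 0 of 5 replication genes did, against 1.14% of the named genes, with a median of -0.05. POLA1, at 1.35-fold, MCM10, at 1.37-fold, FEN1, at 1.31-fold, and MCM3 also leaned to replicate 2, and PCNA and RPA3 leaned to replicate 1, with ratios of 0.85 and 0.80. Counting error alone gave 95% intervals that held a ratio of 1 for 20 of the 39 genes, lay above it for 14, against 38.5% of the named genes of that level, and below it for 5, against 18.4%. With 1 sample on each side these ratios have no replicate check.

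**Figure D3:**
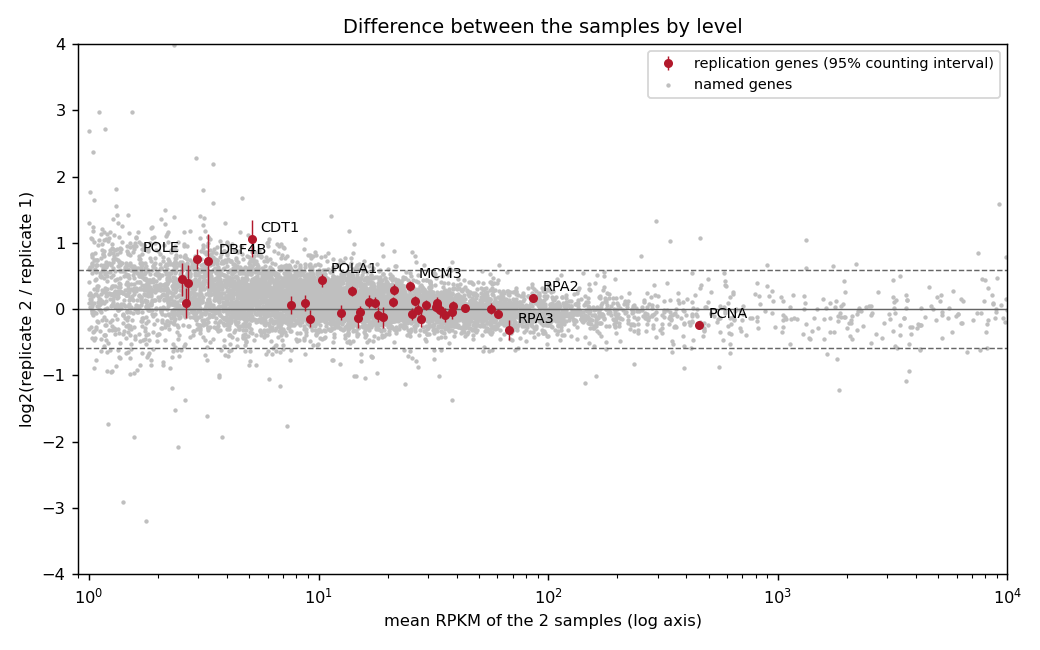
The log2 ratio of replicate 2 over replicate 1 against the mean RPKM (log axis), for the 39 replication genes of at least 1 RPKM (with 95% counting intervals) and for 7982 named genes (grey; 66 lie past the axes), with dashed lines at 1.5-fold. CDT1, POLE and DBF4B lie above the upper line, among low genes that as a whole lean to replicate 2.

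Longer models of the machinery had lower levels. The median was 33.95 RPKM for the 13 genes with models under 1500 bp, 25.9 for the 14 genes of 1500 to 3000 bp and 14.0 for the 13 genes of 3000 bp or more. Across the 39 genes at 1 RPKM or more in both samples, Spearman's rho between level and model length was -0.47, and across the 7900 named genes of that kind it was -0.17. All points come from the same pair of libraries, and genes are not independent replicates. POLE, with the longest model, and PCNA, RPA2, RPA3 and RFC2, with models under 1500 bp, lie along this order, while GINS1, CDT1 and DBF4B are short and low.

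The 40 genes were spread over 16 chromosomes, with 7 on chromosome 1, 6 on chromosome 3 and 4 each on chromosomes 2 and 7. In 12 of the 40, or 30%, the gene started within 1 kb of the start of a gene on the opposite strand, so that both point away from each other. The same held for 8.35% of all named genes and for 12.4% of named genes at 1 RPKM or more in both samples. Whether the shares differ was not tested.

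The mean levels within these head-to-head pairs differed 1.17-fold to 108-fold. ORC6, at 36.6 and 34.5 RPKM, lay 196 bp from VPS35, a sorting gene of endosomes, at 87.2 and 78.2. CDC45, at 37.9 and 39.1, lay 682 bp from UFD1L, a cofactor in the removal of ubiquitin-marked proteins, at 67.4 and 60.2. PCNA, at 493 and 418, lay 474 bp from CDS2, a gene of phospholipid synthesis, at 37.2 and 36.1. RPA2, at 81.2 and 91.3, lay 287 bp from SMPDL3B, which had 0.51 and 1.09 RPKM and was the only partner that did not reach 1 in both samples. ORC1L with the splicing gene PRPF38A at 279 bp, ORC3L with the mitochondrial tRNA synthetase gene RARS2 at 154 bp and MCM8 with the tRNA methylation gene TRMT6 at 69 bp lay within 2.45-fold of each other. In 6 of the 12 pairs the partner had the higher mean. The closest match was MCM3AP with POFUT2, 502 bp apart, at 1.17-fold.

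**Figure D4:**
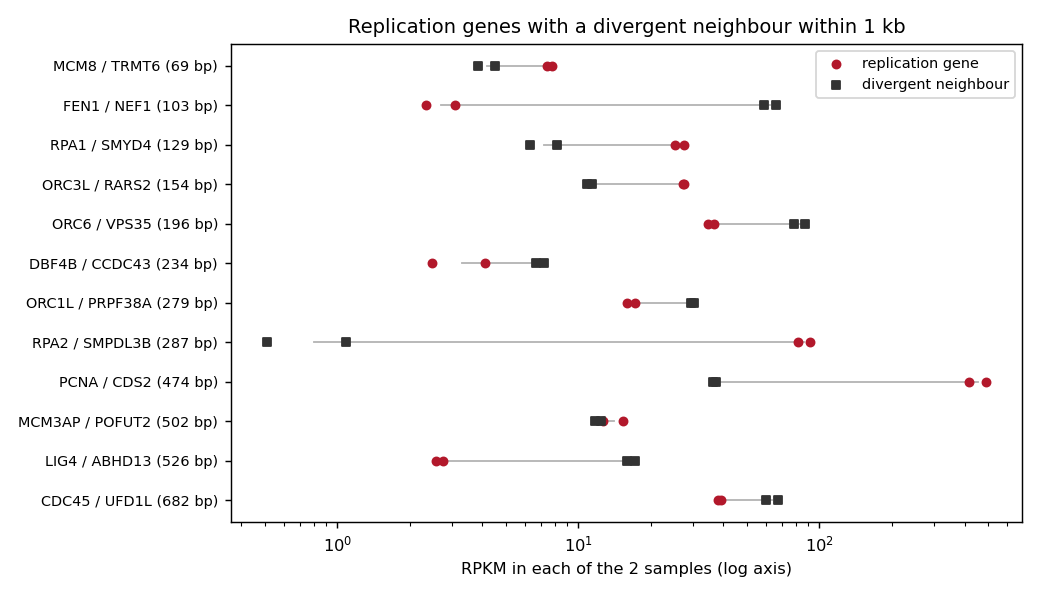
RPKM in each sample (log axis) for the 12 replication genes that start within 1 kb of an opposite-strand start (circles) and for those neighbours (squares), with the distance in bp beside each pair. The partner is higher in 6 pairs, and the pairs of RPA2, FEN1 and PCNA are the widest apart.

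Other models overlapped 6 of the genes, and no source used here says how shared reads were counted or whether strand was used. POLA1 had 1641 and 1698 reads in replicates 1 and 2, and the small Cajal body RNA gene SCARNA24 that lies within it on the same strand had 1113 and 561 reads on 130 bp. RFC1, with 2637 and 2154 reads, lies inside a model listed as GGA.41946 that spans 172330 bp for a length of 645 bp and had 17202 and 11869 reads. MCM9 had 1150 and 937 reads and overlaps the histone chaperone gene ASF1A on the opposite strand, which had 5477 and 3657. MCM8 overlaps CRLS1 on the same strand, ORC5L a 70 bp model without a symbol, and FEN1 the models named above. RFC4, with 893 and 620 reads, ends 81 bp from the end of EIF4A2, which had 96898 and 66997 reads. Levels of these genes are uncertain to the extent that reads were shared, and without the 6 overlapped genes 33 of 34 were at 1 RPKM or more, with a median of 25.9.

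A further 92 genes, in 8 lists, covered factors of the fork and of origins, nucleotide supply, repair polymerases and mitochondrial DNA replication. Of these, 77 were measured and 74 of the 77 reached 1 RPKM in both samples, against 60.4% of all named genes. Their median was 17.4 RPKM, beside 21.2 for the 40 genes, 4.34 for all named genes and 13.9 for the named genes at 1 RPKM or more in both samples. Values for the lists are mean ± SD of the 2 samples.

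Histone deposition and DNA methylation genes had the highest median, 54.5 RPKM, with 7 of 7 at 1 RPKM or more. ASF1A, which hands histones to the new strands, had 142 ± 13.8, and RBBP4, a histone-binding subunit of several complexes, had 91.9 ± 3.50. SSRP1, of the histone chaperone FACT, had 62.0 ± 6.05, and UHRF1, which brings maintenance methylation to new DNA, had 54.5 ± 3.06. DNMT1 was not analysed here. Cohesion genes were at 1 RPKM or more in 9 of 9 cases, with a median of 27.6. The cohesin subunit genes RAD21 and STAG2 had 47.5 ± 7.29 and 41.1 ± 0.00707, the release factor gene WAPAL had 43.2 ± 1.95, and PDS5A had 31.7 ± 2.21.

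Genes of nucleotide supply had a median of 26.2 RPKM, with 11 of 12 at 1 RPKM or more. The ribonucleotide reductase genes RRM1 and RRM2 had 117 ± 2.61 and 60.4 ± 2.35, the thymidine kinase gene TK1 had 65.0 ± 3.93, and TYMS, which makes thymidylate, had 38.6 ± 2.99. RRM1 was thus above every replication gene except PCNA. NME1 had 0.32 and 0.45 RPKM. Clamp loader partners and clamp regulators had a median of 21.02, with 9 of 10 at 1 RPKM or more, led by the ubiquitin-conjugating gene UBE2A at 66.7 ± 7.62. HUS1, of the checkpoint clamp, had 30.7 ± 2.11, and DSCC1 and CHTF8, of the alternative clamp loader, had 23.5 ± 3.01 and 21.4 ± 0.262. UBE2B, a close relative of UBE2A, had 0.91 and 0.95. Reads of such relatives may have been split between copies, which was not tested.

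Genes of mitochondrial DNA replication reached 1 RPKM in 7 of 7 cases, with a median of 19.0. SSBP1, which coats single-stranded mitochondrial DNA, had 73.6 ± 8.56, TFAM 33.0 ± 1.23, TOP1MT 21.3 ± 3.08 and the RNA polymerase gene POLRMT 19.0 ± 1.32. Origin firing and checkpoint factors had a median of 12.1, with 11 of 11 at 1 RPKM or more. TIPIN, the partner of TIMELESS, led with 38.4 ± 0.410, followed by RIF1, which sets the timing of origins, at 30.2 ± 4.79, ATRIP at 19.1 ± 1.74 and TOPBP1 at 16.1 ± 0.714. Lagging strand and helicase enzymes had a median of 12.1, with 12 of 12. RNASEH1 and RNASEH2B, of the nucleases that remove RNA from hybrids with DNA, had 35.0 ± 2.35 and 30.8 ± 0.962, and the topoisomerase genes TOP2A and TOP2B had 25.6 ± 2.74 and 18.9 ± 1.29.

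Translesion and repair polymerases had the lowest median of the 8 lists, 9.26 RPKM, with 8 of 9 at 1 RPKM or more. POLB, the polymerase of base excision repair, had 55.2 ± 3.16, above both catalytic subunits of replicative polymerases measured, POLA1 and POLE. POLK had 28.9 ± 1.19, POLH 17.7 ± 2.25 and MAD2L2 10.8 ± 0.0424, while POLN had 1.03 and 0.74.

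**Figure D5:**
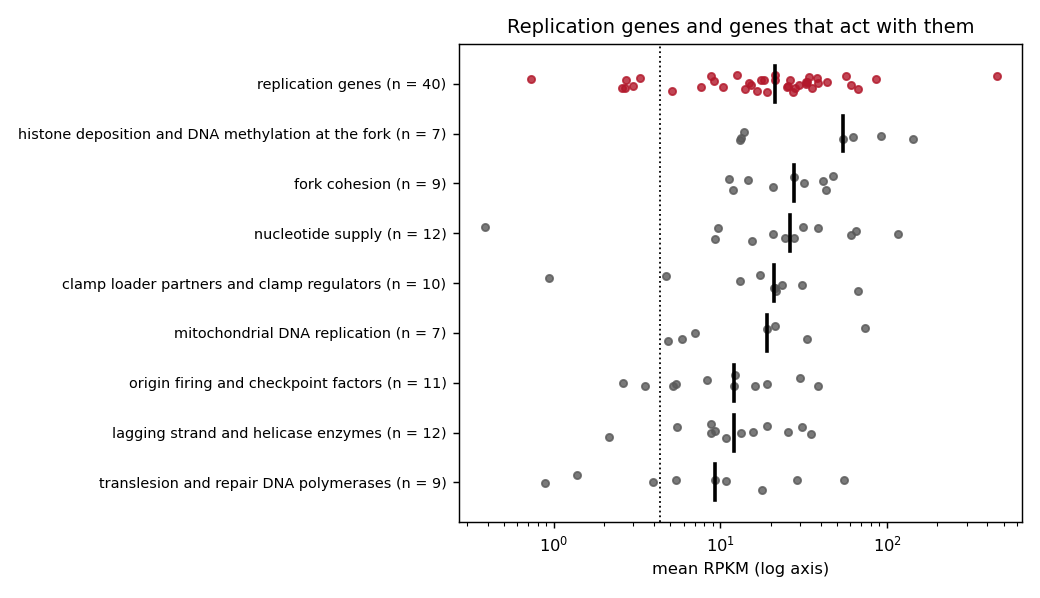
Mean RPKM (log axis) of the 40 replication genes (top row) and of 77 genes in 8 lists of related factors, nucleotide supply and mitochondrial DNA replication included. Each point is a gene, bars are medians and the dotted line is the median of all named genes at 4.34. The medians of all 8 lists lie above that line, from 9.26 to 54.5.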

How the data were processed

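Total RNA of 2 samples of 6C2 cells was depleted of ribosomal RNA, fragmented with RNase III and sequenced as SOLiD libraries, per the labels' protocols. The authors deposited 1 table of read counts and RPKM per gene model, per the file headers. No source used here gives the aligner, counting tool, genome build or annotation. The deposited RPKM equal the count per model length and per 39711332 (replicate 1) or 30405305 (replicate 2) reads. RPKM depends on the annotated model, and small RNAs and mitochondrial genes, with 38.7% and 39.6% of reads, lower all other values.

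Named genes are the 13086 models whose symbol is more than an identifier. Genes, lists and thresholds were chosen with earlier results of these data known. All 40 members are named, and of each list the 4 highest genes, those under 1 RPKM in both samples, and RRM1, RRM2, TOP2A, DNMT1 and UHRF1. CHAF1A, CHAF1B, NASP, POLN and the neighbouring and overlapping genes were named after their values were seen. Intervals (95%, exact) cover counting error only and treat reads as independent. PCR copies are not independent molecules, so the intervals may be too narrow. The counting interval of the ratio was tested on simulated Poisson counts and the detection count on simulated levels. The other steps were not tested on simulated data. Alternatives were single samples, other models, scales and thresholds. Tools were Python 3.11.15 with scipy 1.17.1, numpy 2.4.6, matplotlib 3.10.9 and pandas 2.3.3.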

Additional observations from a re-analysis of the deposited data

How the results depend on the processing

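Replication genes at 1 RPKM or more in both samples numbered 39 of 40 with either sample alone and with the model of most reads. They numbered 38 of 39 without MCM3AP and 40 after rescaling to reads outside small RNAs and mitochondrial genes. This rescaling raises every value, and the share of named genes at 1 RPKM after it was not computed. At thresholds of 5 and 10 RPKM, 33 and 29 replication genes passed, where 46.4% and 35.2% of named genes did. The median was 20.2 to 22.6 with 1 sample and 21.1 to 21.2 with averages on a log2 scale, without MCM3AP or with a minimum of 0.1 RPKM, which raised the median of named genes to 8.55. It was 34.5 after the rescaling, by which the median of named genes was 7.07. It was 25.9 without the 6 overlapped genes, and 25.3 without DBF4B, LIG3, LIG4, MCM3AP, MCM8 and MCM9. These last 2 alternatives were chosen after seeing the data. The span of the MCM subunits was 1.99 to 2.26 with 1 sample and 2.05 otherwise. No paired analysis was possible because there is 1 group. Depth limits GINS1 and DBF4B most, which had the fewest reads of the 40.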
